A study of Mus musculus with 12 samples.

Results

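The 49 genes described here encode the machinery that carries newly made proteins into the endoplasmic reticulum (ER) and on to the Golgi, together with the ER-membrane transcription factors Creb3l1 and Creb3l2. They were chosen by name for these roles from the 25117 gene symbols of the deposited table. All 49 were in the table, all 49 passed the filter on low values, and 0 of them were listed at 0 in any library. They fall into 9 role groups: 2 regulators, 4 translocon genes, 5 genes of signal peptidase, 4 of the TRAP complex, 4 of the signal recognition particle (SRP), 12 of the COPII coat, 7 of the COPI coat, 9 cargo receptors and 2 SNAREs.

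A protein bound for secretion is recognised by SRP as it leaves the ribosome, enters the ER through the Sec61 translocon with help from TRAP, and loses its signal sequence to signal peptidase. COPII vesicles then bud from ER exit sites with cargo held by the inner coat or by cargo receptors. COPI vesicles return receptors and escaped ER residents from the Golgi. Fibroblasts secrete large amounts of collagen and other matrix proteins through this route, and the Creb3-type factors, which are held in the ER membrane until Golgi proteases cut them free, are known to raise transcription of parts of it.

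Polyadenylated RNA was measured in mouse embryonic fibroblasts (MEFs) homozygous for a floxed Rbbp5 allele and for a Cre recombinase at Rosa26, a locus active in most cell types. RBBP5 is a core subunit of the complexes that methylate histone H3 at lysine 4. The 12 libraries fall into 4 groups of 3: RBBP5 KO in EBSS, wildtype in EBSS, RBBP5 KO in full medium, and wildtype in full medium. Cells of the KO groups had tamoxifen for 7 days and cells of the wildtype groups had none, so the drug, the recombinase and the lost protein cannot be told apart. After that, cells were kept for 16 hours in DMEM with serum (full medium) or in EBSS (Earle's balanced salts), which has glucose but no amino acids or serum and is used to starve cells. The wildtype cells carry the same floxed alleles and Cre. Values are TPM, transcript abundances corrected for length and scaled to a fixed library total, so a gene can move because the rest of the library moved, and fewer cells of a type cannot be told apart from less RNA per cell. The number of reads behind each value is unknown, because TPM keeps none.

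Rbbp5 itself (chromosome 1 from 132477365 to 132505659 on GRCm38) went against the labels in EBSS. Among EBSS libraries it read 31.9, 24.6 and 23.0 TPM under the KO label and 12.4, 14.0 and 11.8 TPM under the wildtype label. Full-medium libraries read 7.47, 9.34 and 8.31 TPM in KO and 26.2, 25.7 and 26.2 TPM in wildtype. The fitted differences, on the log2 scale, were −1.53 (SE 0.13, adjusted p = 3.4e-06) between KO and wildtype in full medium, and 0.99 (SE 0.13, adjusted p = 3.2e-05) between the labels in EBSS. Median-of-ratios scaling, which removes the shift of all genes, left 0.07 of the second (adjusted p = 0.59). Against wildtype, full medium, Rbbp5 in labelled wildtype, EBSS was at −0.98 (SE 0.13, adjusted p = 3.3e-05), or −0.02 (adjusted p = 0.88) with that scaling. Against KO, full medium, Rbbp5 in labelled wildtype, EBSS was at 0.55 (SE 0.13, adjusted p = 0.0026). The sources used here do not name the deleted exons, and exons that remain can still add to a gene-level value. Both EBSS groups are named by their labels throughout, since every direction between them rests on labels in doubt. The 3 libraries labelled wildtype, EBSS also stood apart in make-up: 83 ribosomal protein genes made up 31.8% to 34.3% of the TPM there and 14.6% to 18.2% in the other 9, the ribosomal RNA precursor Rn45s ranged over 1454 to 2105 TPM there and 68.3 to 272 TPM elsewhere, and replicate 3 listed 1122 of 12653 tested genes at 0. Summed over 7 genes, fibroblast markers were at 3475 to 4705 TPM in labelled KO, EBSS, 2626 to 3089 TPM in labelled wildtype, EBSS, 3532 to 3842 TPM in KO, full medium and 4542 to 4656 TPM in wildtype, full medium. Vim made up most of these sums, at 1973 TPM or more in every library. Col1a1 was at 1000 to 1277 TPM in labelled KO, EBSS, 171 to 251 TPM in labelled wildtype, EBSS, 215 to 323 TPM in KO, full medium and 1047 to 1056 TPM in wildtype, full medium. Col1a2 and Pdgfrb were likewise lower in labelled wildtype, EBSS and in KO, full medium, with no value under 24.3 TPM, while Pdgfra was at 0.224 to 0.263 TPM in KO, full medium and 2.49 to 15.6 TPM elsewhere, Thy1 at 1.32 TPM or less, and Fap under 1 TPM in all 12. Summed macrophage markers (5 genes) reached 60.3 to 65.0 TPM in KO, full medium, mostly Cd68, and 17.6 to 75.7 TPM in labelled wildtype, EBSS, against 16.9 to 20.9 TPM elsewhere. Replicate 3 of labelled wildtype, EBSS stood apart from its group in these markers, with Lyz2 at 48.4 TPM (2.22 and 2.93 TPM in replicates 1 and 2), Adgre1 at 3.38 TPM (0.292 TPM or less in the other 11 libraries) and Csf1r at 2.84 TPM (0.788 TPM or less in the other 11). The leukocyte gene Ptprc was under 1 TPM in all 12, with its highest value, 0.734 TPM, in that library. Summed skeletal muscle markers (4 genes, mostly Acta1) were at 52.9 to 65.9 TPM in KO, full medium, against 1.76 to 16.4 TPM elsewhere, with the defining factors Myod1 and Myog under 1 TPM in all 12. Summed endothelial and epithelial markers (4 genes each) stayed at 11.1 TPM or less, and summed neural markers (4 genes, mostly Nes) were at 99.6 to 184 TPM in labelled KO, EBSS, 44.0 to 60.0 TPM in labelled wildtype, EBSS, 75.6 to 84.7 TPM in KO, full medium and 149.9 to 163 TPM in wildtype, full medium. The part of these shifts in the results below was not tested.

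The 49 genes are abundant, and in 1 of the 4 groups their summed level was far below that of the others. In wildtype, full medium, group means ranged from 10.9 TPM for Sec24a, which encodes a cargo-binding COPII subunit, to 582 TPM for Tmed2, a cargo receptor of the p24 family. Together the 49 genes summed to 7365 to 9433 TPM in the libraries labelled KO, EBSS, 2886 to 3084 TPM in those labelled wildtype, EBSS, 6582 to 6882 TPM in KO, full medium, and 7536 to 7646 TPM in wildtype, full medium. The libraries labelled wildtype, EBSS were therefore the lowest group, and the top of the highest range belongs to replicate 1 of labelled KO, EBSS, whereas replicates 2 and 3 of that group were at 7467 and 7365 TPM.

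**Figure D1:**
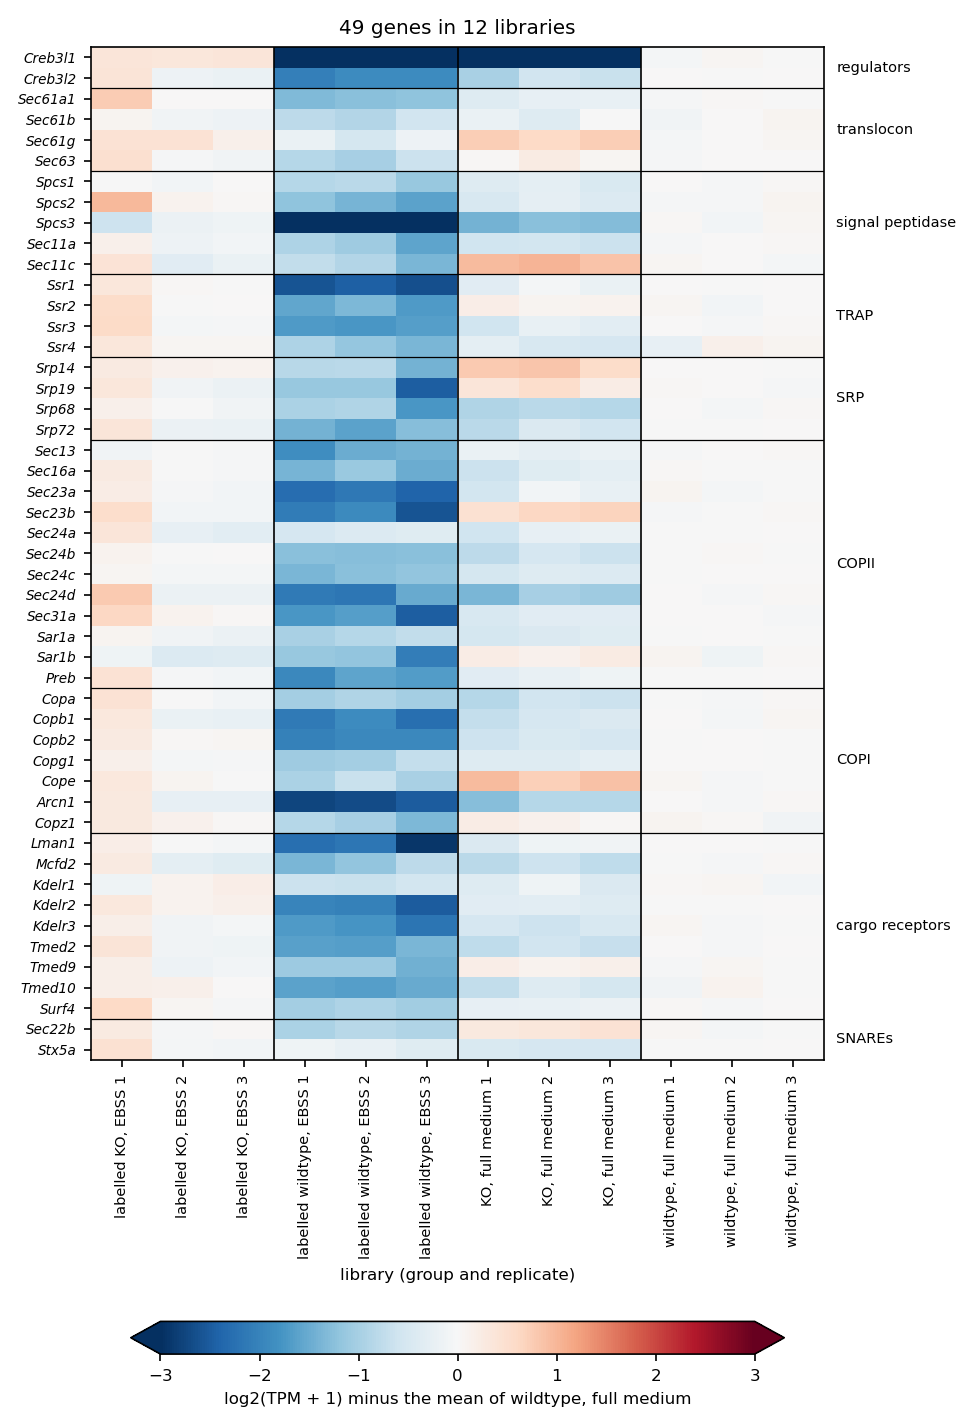
Level of each of the 49 genes (rows, by role) in each of the 12 libraries (columns, by group) as log2(TPM + 1) minus the mean of wildtype, full medium; colours stop at −3 and 3. The columns labelled wildtype, EBSS are low for nearly every gene, those of KO, full medium show Creb3l1 low beside a minority of raised genes such as Sec11c and Cope, and those labelled KO, EBSS lie near wildtype, full medium, with replicate 1 higher than replicates 2 and 3.

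Loss of RBBP5 in fed cells is addressed by KO against wildtype in full medium. Among the 49 genes, falls in KO outnumbered rises, Creb3l1 was nearly absent, and 6 genes were higher. Falls also outnumbered rises among the 74 other tested genes of the pathway (22 fell and 14 rose) and among all tested genes. The share of the 74 that fell, 29.7%, was below the 35.8% of all tested genes, unlike that of the 49. Of the 49 genes, 6 rose (12.2%) and 25 fell (51%) by limma with a Benjamini-Hochberg adjusted p under 0.05, against a background of 20.1% of all 12653 tested genes that rose and 35.8% that fell (55.9% in either direction). The share that rose was thus below the background and the share that fell above it. The genes that rose were Sec61g, Sec11c, Srp14, Sec23b, Cope and Sec22b. The median log2 change of the 49 was −0.37, where the median of all tested genes was −0.17, which leaves −0.21 relative to all genes. With median-of-ratios scaling 7 rose and 17 fell, where 26.7% of all genes rose and 27% fell, and no gene called in both scalings changed direction. The 8 falls lost with that scaling were Spcs1, Ssr4, Sec16a, Copg1, Kdelr1, Kdelr2, Kdelr3 and Stx5a, and Tmed9 was gained as a rise at 0.33 (adjusted p = 0.039). Counted without any test, 11 genes were higher in all 3 KO libraries than in all 3 wildtype libraries (30.5% of all tested genes) and 36 were lower (49.7% of all tested genes). Without the 3 libraries labelled wildtype, EBSS and replicate 1 of labelled KO, EBSS, whose spread enters the fit, 10 rose and 36 fell, where 30% and 48.5% of all tested genes did.

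**Figure D2:**
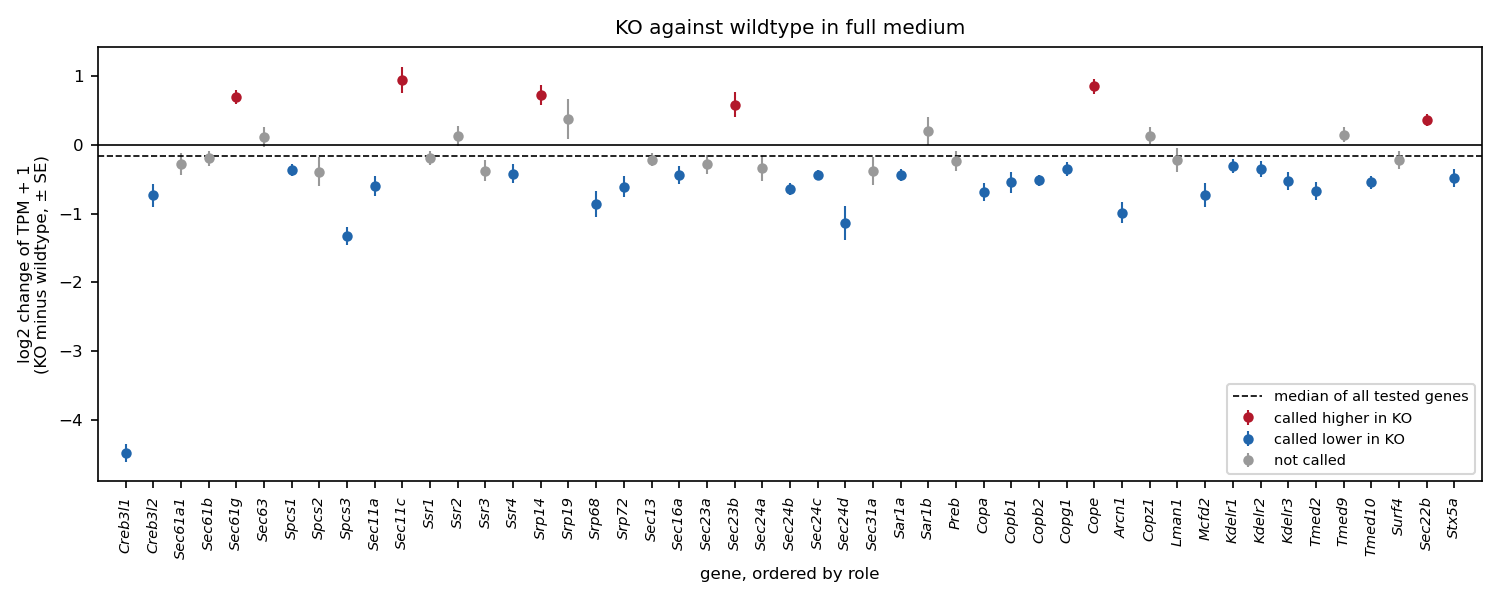
Log2 change of TPM + 1, KO minus wildtype in full medium, for the 49 genes in order of role; points are fitted changes, bars are standard errors (3 libraries a group), and the dashed line is the median of all tested genes at −0.17. Creb3l1 lies at −4.47, far below the other 48, and 6 genes are called above 0; with median-of-ratios scaling 8 of the 25 calls below 0 are lost.

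Of the 2 regulators, only Creb3l1 was extreme in KO against wildtype in full medium. Creb3l2 fell by less than Spcs3, Sec24d, Arcn1 and Srp68. Creb3l1 (also known as OASIS; chromosome 2 from 91982328 to 92024502), which drives type I collagen transcription in mouse bone, was at 1.24, 1.35 and 2.00 TPM in KO libraries and at 52.6, 57.1 and 54.3 TPM in wildtype libraries. The KO mean was 2.81% of the wildtype mean, and the groups were far apart. Its fitted log2 change was −4.47 (SE 0.13, adjusted p = 2.5e-09), and −4.24 (adjusted p = 5.9e-09) with median-of-ratios scaling. Creb3l2 (BBF2H7; chromosome 6 from 37327255 to 37442146), its close relative, which drives Sec23a in mouse cartilage, was at 8.86, 12.1 and 11.3 TPM in KO libraries and at 18.6, 18.3 and 18.5 TPM in wildtype libraries. All 3 KO libraries were below all 3 wildtype libraries, and the fitted difference was −0.74 (SE 0.16, adjusted p = 0.0028). In EBSS, Creb3l1 reached 70.4, 69.6 and 70.0 TPM under the KO label, against 5.41, 4.55 and 5.98 TPM under the wildtype label. Creb3l2 was at 24.3, 16.6 and 15.8 TPM in labelled KO and at 3.70, 4.26 and 4.29 TPM in labelled wildtype. For both factors the libraries labelled KO, EBSS resembled wildtype in full medium; for Creb3l1 those labelled wildtype, EBSS were nearest to KO in full medium but above it in every library, and for Creb3l2 they were the lowest of the 4 groups.

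**Figure D3:**
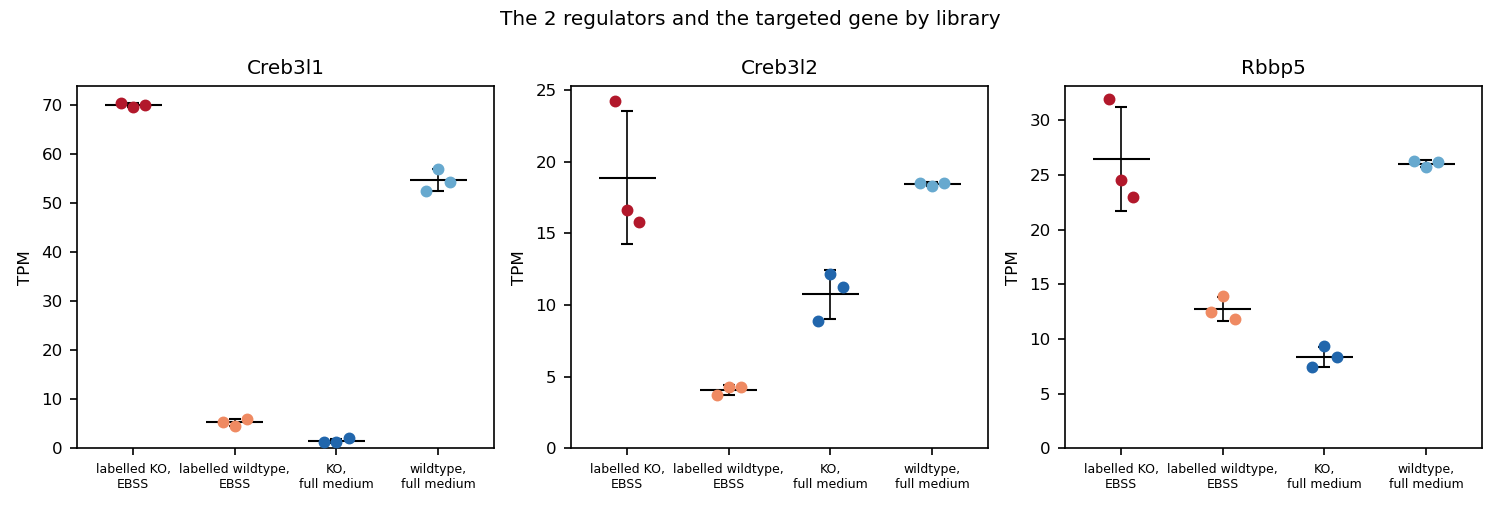
TPM of Creb3l1, Creb3l2 and the targeted gene Rbbp5 in each library (points) by group, with the group mean (line) and SD (bars, n = 3). Creb3l1 is at 69.6 TPM or more in every library labelled KO, EBSS and at 2.00 TPM or less in every KO library in full medium, and Rbbp5 is high in the group labelled KO, EBSS.

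Promoters of the 49 genes were searched for binding sequences of the ER stress and CREB3 factors, in RefSeq windows from 250 bases before to 50 bases after the RefSeq gene start on GRCm38.p6. Windows were given for 38 of the 49 genes, and those of Creb3l1 and Spcs3 were not among them. The core of the unfolded protein response element, TGACGTG on either strand, was present in 6 of the 38 (15.8%: Copb1, Copb2, Kdelr3, Sec23a, Sec24d and Stx5a), against 3.31% of the 10008 tested genes with a window. The cyclic AMP response element TGACGTCA was in 1, that of Cope (2.63%, against 3.60%), and CCACGTG in 3 (Mcfd2, Ssr1 and Tmed10; 7.89%, against 6.44%). The ER stress elements ERSE (CCAAT and CCACG 9 bases apart) and ERSE-II were in 0 of the 38, against 0.140% and 0.0799% of tested genes. A match is a description of these letters and not of binding. The 250 bases before the RefSeq start of 4 of these genes are printed from 5′ to 3′ on the gene's own strand, chosen after the search: Cope rose in KO, and Sec24d, Kdelr3 and Copb1 fell. Capitals mark the cyclic AMP response element in Cope and the unfolded protein response core in the others, where CACGTCA is that core on the opposite strand.
Sec24d (chr3:123267246-123267495, plus strand): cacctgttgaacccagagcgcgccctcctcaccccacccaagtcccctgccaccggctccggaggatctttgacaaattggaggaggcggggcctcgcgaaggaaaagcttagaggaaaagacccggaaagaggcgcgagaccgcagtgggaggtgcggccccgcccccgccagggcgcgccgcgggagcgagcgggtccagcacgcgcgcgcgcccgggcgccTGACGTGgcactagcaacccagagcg
Kdelr3 (chr15:79516158-79516407, plus strand): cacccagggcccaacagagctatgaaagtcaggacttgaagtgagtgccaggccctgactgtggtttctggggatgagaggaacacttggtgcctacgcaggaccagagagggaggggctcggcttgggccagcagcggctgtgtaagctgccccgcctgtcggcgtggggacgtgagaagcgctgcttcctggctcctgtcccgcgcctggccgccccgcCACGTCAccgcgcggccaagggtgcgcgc
Copb1 (chr7:114254681-114254930, minus strand): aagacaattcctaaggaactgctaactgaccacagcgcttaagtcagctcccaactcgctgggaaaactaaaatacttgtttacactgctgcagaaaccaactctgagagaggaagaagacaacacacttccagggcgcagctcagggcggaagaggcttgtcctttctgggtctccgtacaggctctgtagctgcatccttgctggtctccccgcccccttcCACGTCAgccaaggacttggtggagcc
Cope (chr8:70302517-70302766, plus strand): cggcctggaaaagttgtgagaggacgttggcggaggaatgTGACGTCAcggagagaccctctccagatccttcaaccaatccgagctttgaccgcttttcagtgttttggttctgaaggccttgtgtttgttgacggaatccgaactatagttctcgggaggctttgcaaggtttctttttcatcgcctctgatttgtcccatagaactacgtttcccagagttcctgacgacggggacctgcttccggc
Counted from the RefSeq gene start, the core begins 26, 27 and 29 bases upstream in Sec24d, Copb1 and Kdelr3, and the element begins 210 bases upstream in Cope. In the genes not printed, the core begins 6 bases upstream in Copb2, 6 bases downstream in Sec23a, and 10 and 39 bases downstream in Stx5a. The gene spans given in the text are those of GENCODE, in which Sec24d, Copb1 and Cope start farther upstream, so that their marked bases lie within the GENCODE span and the distances hold for the RefSeq start alone. In KO against wildtype in full medium, 5 of the 6 genes with the core were called lower, from −0.49 for Stx5a to −1.14 for Sec24d, and Sec23a was at −0.29 and not called, where 51% of the 49 and 35.8% of all tested genes fell. With median-of-ratios scaling the calls of Kdelr3 and Stx5a were lost (adjusted p = 0.055 and 0.058).

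Counts for each role group below stand against 20.1% of all tested genes that rose and 35.8% that fell. Each group holds few genes, and whether a group differs from that background was not tested. Ordered along the route, results for KO against wildtype in full medium begin with the translocon. There, 1 of 4 genes rose and 0 fell. Sec61g, the small gamma subunit of the channel, was at 338, 311 and 339 TPM in KO libraries and at 196, 204 and 211 TPM in wildtype libraries, with no overlap, and changed by 0.69 (SE 0.11, adjusted p = 0.00024). Sec61a1, which forms the channel itself, was at −0.28 (SE 0.16, adjusted p = 0.17), Sec61b, the beta subunit, at −0.20 (adjusted p = 0.14), and Sec63, which brings the chaperone BiP to the channel, at 0.11 (adjusted p = 0.54). Small genes such as Sec61g and Srp14 have processed pseudogenes, and how the authors' quantification split reads among near-identical copies is not given in the sources used here.

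Within signal peptidase, changes ran from −1.32 to 0.94, with 1 of 5 genes called as a rise and 3 as falls. Spcs3 (chromosome 8 from 54520433 to 54529998), whose yeast counterpart is needed for cleavage, was at 96.5, 109 and 106 TPM in KO libraries and at 266, 246 and 271 TPM in wildtype libraries. Every KO library was under every wildtype library, the mean was 39.8% of wildtype, and the change was −1.32 (SE 0.13, adjusted p = 7.7e-06). Sec11c, 1 of the 2 alternative catalytic subunits, was at 143, 149.8 and 134 TPM in KO libraries and at 76.2, 73.9 and 71.2 TPM in wildtype libraries. It thus rose, by 0.94 (SE 0.19, adjusted p = 0.0016), while the other catalytic subunit, Sec11a, fell by 0.60 (adjusted p = 0.0049). Spcs1 was at −0.37 (adjusted p = 0.0032, lost with median-of-ratios scaling) and Spcs2 at −0.39 (adjusted p = 0.13).

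In TRAP, the translocon-associated complex that helps some signal sequences engage the channel, 1 of 4 genes fell and 0 rose. Ssr4, its delta subunit, was at 149, 132 and 130.0 TPM in KO libraries and at 155, 206 and 196 TPM in wildtype libraries. The lowest wildtype library lay close above the highest KO library, and the change was −0.43 (SE 0.14, adjusted p = 0.021). That call was lost with median-of-ratios scaling (adjusted p = 0.21) and when any 1 of 4 libraries, replicates 2 and 3 of KO and replicates 2 and 3 of wildtype in full medium, was left out (log2 change −0.40, −0.39, −0.35 and −0.38). Ssr1, Ssr2 and Ssr3 were at −0.19, 0.13 and −0.38 and did not pass.

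In SRP, 1 of 4 genes rose and 2 fell. Srp14, of the Alu domain that slows the ribosome, was at 563, 582 and 477 TPM in KO libraries and at 327, 327 and 323 TPM in wildtype libraries, a rise of 0.72 (SE 0.14, adjusted p = 0.0013). Srp68, which forms a dimer with Srp72 on the SRP RNA, was at 48.7, 51.8 and 50.4 TPM in KO libraries and at 93.2, 88.9 and 94.4 TPM in wildtype libraries, a log2 change of −0.86 (SE 0.18, adjusted p = 0.002). Neither pair of groups overlapped. Srp72 was at −0.61 (adjusted p = 0.0058) and Srp19, an assembly subunit, at 0.37 (adjusted p = 0.31).

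Of 12 COPII genes, 1 rose and 5 fell, and their median of −0.37 lay 0.20 under that of all genes. Sec24d (chromosome 3 from 123267455 to 123365641), a cargo-binding subunit needed for collagen export, was at 24.3, 31.5 and 29.9 TPM in KO libraries and at 64.4, 62.4 and 65.2 TPM in wildtype libraries. Its mean was 44.7% of wildtype without overlap, and the change was −1.14 (SE 0.25, adjusted p = 0.0022). Sec23b, 1 of 2 paralogs of the inner coat, was at 121, 135 and 139.5 TPM in KO libraries and at 85.9, 87.1 and 90.4 TPM in wildtype libraries, a rise of 0.58 (SE 0.19, adjusted p = 0.02) that was lost when any 1 of 4 libraries, replicates 2 and 3 of KO and replicates 1 and 2 of wildtype in full medium, was left out (log2 change 0.56, 0.54, 0.56 and 0.57). The other falls were in Sec24b at −0.65, Sec24c and the vesicle GTPase Sar1a both at −0.44, and the exit site scaffold Sec16a at −0.44, the last lost with median-of-ratios scaling. The outer coat genes Sec13 and Sec31a (−0.22 and −0.39), Sec23a, Sec24a (−0.35), Sar1b (0.20) and the Sar1 exchange factor Preb (−0.24) did not pass.

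Of the 7 coatomer genes that form the COPI coat, 1 rose and 5 fell. Cope, the epsilon subunit (chromosome 8 from 70302518 to 70312993), was at 376, 317 and 359 TPM in KO libraries and at 201, 189 and 192 TPM in wildtype libraries. All KO libraries were above all wildtype libraries, a rise of 0.85 (SE 0.11, adjusted p = 6e-05). Arcn1, the delta subunit, was at 75.9, 102 and 102 TPM in KO libraries and at 185, 179.7 and 188 TPM in wildtype libraries, a log2 change of −0.99 (SE 0.15, adjusted p = 0.00023). Copa, the alpha subunit, was at −0.69, the beta subunits Copb1 and Copb2 at −0.55 and −0.52, and Copg1 at −0.35, the last lost with median-of-ratios scaling. The zeta subunit Copz1 was at 0.13 (adjusted p = 0.39).

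Of 9 cargo receptors, 0 rose and 6 fell, with a median of −0.35. Mcfd2, the partner of Lman1 in the export of coagulation factors, was at 75.9, 86.6 and 78.5 TPM in KO libraries and at 132, 132 and 138 TPM in wildtype libraries, a log2 change of −0.73 (SE 0.17, adjusted p = 0.0038) without overlap. Lman1 itself was at −0.22 (adjusted p = 0.29). The p24 genes Tmed2 and Tmed10 were at −0.67 and −0.55, and Tmed9 at 0.14 (adjusted p = 0.3). The KDEL receptors Kdelr1, Kdelr2 and Kdelr3, which return ER residents from the Golgi, were at −0.31, −0.35 and −0.53, all called as deposited and none with median-of-ratios scaling. The export receptor Surf4 was at −0.22 (adjusted p = 0.18).

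The 2 SNAREs moved apart. Sec22b, of ER-derived vesicles, was at 92.5, 96.1 and 102 TPM in KO libraries and at 79.3, 72.6 and 75.5 TPM in wildtype libraries, a rise of 0.35 (SE 0.09, adjusted p = 0.0056). Stx5a, the syntaxin of the early Golgi, was at 60.2, 58.7 and 58.4 TPM in KO libraries and at 82.7, 82.6 and 84.1 TPM in wildtype libraries, a log2 change of −0.49 (SE 0.13, adjusted p = 0.0064) that was lost with median-of-ratios scaling (log2 change −0.30, adjusted p = 0.058). Both pairs of groups were free of overlap.

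Shares within a complex or a family do not depend on the scaling of a library, and they show how the balance of subunit RNA differed. They are shares of TPM and not of protein. The 10 shares computed were chosen after gene values had been seen, so they are descriptions, and with 3 libraries against 3 the smallest two-sided p of an exact permutation test is 0.1. Sec11c made up 64.9%, 65.3% and 64.3% of the summed catalytic subunits Sec11a and Sec11c in KO, full medium, against 40.2%, 38.5% and 37.1% in wildtype, full medium. The more abundant of the 2 catalytic subunit RNAs was thus Sec11c in KO and Sec11a in wildtype. Cope made up 34.0% ± 2.95 of the 7 coatomer genes in KO and 17.0% ± 0.351 in wildtype (mean ± SD, n = 3 each), Srp14 60.7% ± 1.63 of the 4 SRP genes in KO and 46.5% ± 0.263 in wildtype, and Sec61g 43.4% ± 1.45 of the 3 channel subunits in KO and 28.6% ± 0.254 in wildtype. Sec23b made up 77.6% ± 2.04 of the Sec23 pair in KO and 65.3% ± 1.60 in wildtype, and Sar1b 31.9% ± 1.48 of the Sar1 pair in KO and 23.1% ± 1.49 in wildtype. Lower shares in KO were those of Spcs3 among Spcs1 to Spcs3, at 32.3% ± 1.35 in KO against 47.9% ± 0.598 in wildtype, and of Sec24d among the 4 Sec24 genes, at 25.9% ± 1.11 in KO against 35.4% ± 0.657 in wildtype. In each of these 8 shares the groups did not overlap (exact permutation p = 0.1). For Kdelr1 among the KDEL receptors (27.5% ± 2.24 in KO and 26.2% ± 1.01 in wildtype) and Ssr1 in TRAP (9.40% ± 0.702 in KO and 9.63% ± 0.0948 in wildtype) they did (exact permutation p = 0.6 and 0.7).

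In EBSS the same shares took other values. Sec11c made up 38.3% ± 4.13 of its pair in the libraries labelled KO and 41.8% ± 0.315 in those labelled wildtype, and the groups overlapped. Kdelr1 made up 25.2% ± 3.64 of the KDEL receptors in labelled KO and 49.5% ± 5.98 in labelled wildtype, and the groups did not overlap. Spcs3 made up 41.5% ± 6.93 of Spcs1 to Spcs3 in labelled KO and 17.3% ± 2.92 in labelled wildtype, and Ssr1 made up 9.36% ± 0.656 of TRAP in labelled KO and 4.69% ± 0.225 in labelled wildtype, both without overlap. Mean shares in labelled KO and labelled wildtype were 17.8% and 24.2% for Cope, 49.2% and 53.3% for Srp14, 32.1% and 39.2% for Sec61g, and 38.0% and 24.2% for Sec24d. None of these overlapped between the labels. For Sec23b (66.7% and 67.3%) and Sar1b (20.2% and 16.6%) the labels did overlap. The ratio of the highest to the lowest coatomer gene was 2.31 ± 0.285 in labelled KO, EBSS, 4.74 ± 0.235 in labelled wildtype, EBSS, 5.24 ± 0.909 in KO, full medium and 2.06 ± 0.0861 in wildtype, full medium (mean ± SD, n = 3 each). In SRP it was 3.94 ± 0.160 in labelled KO, EBSS, 4.87 ± 0.479 in labelled wildtype, EBSS, 10.8 ± 1.13 in KO, full medium and 3.54 ± 0.126 in wildtype, full medium. For the coatomer, the libraries of KO, full medium and of labelled wildtype, EBSS overlapped in this ratio. In COPII the ratio ranged over 19.1 to 34.0 in labelled KO, EBSS, 14.5 to 15.6 in labelled wildtype, EBSS, 27.2 to 37.7 in KO, full medium and 26.6 to 27.8 in wildtype, full medium, and in TRAP its mean was 4.07 in labelled KO, EBSS, 8.25 in labelled wildtype, EBSS, 4.88 in KO, full medium and 3.88 in wildtype, full medium.

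**Figure D4:**
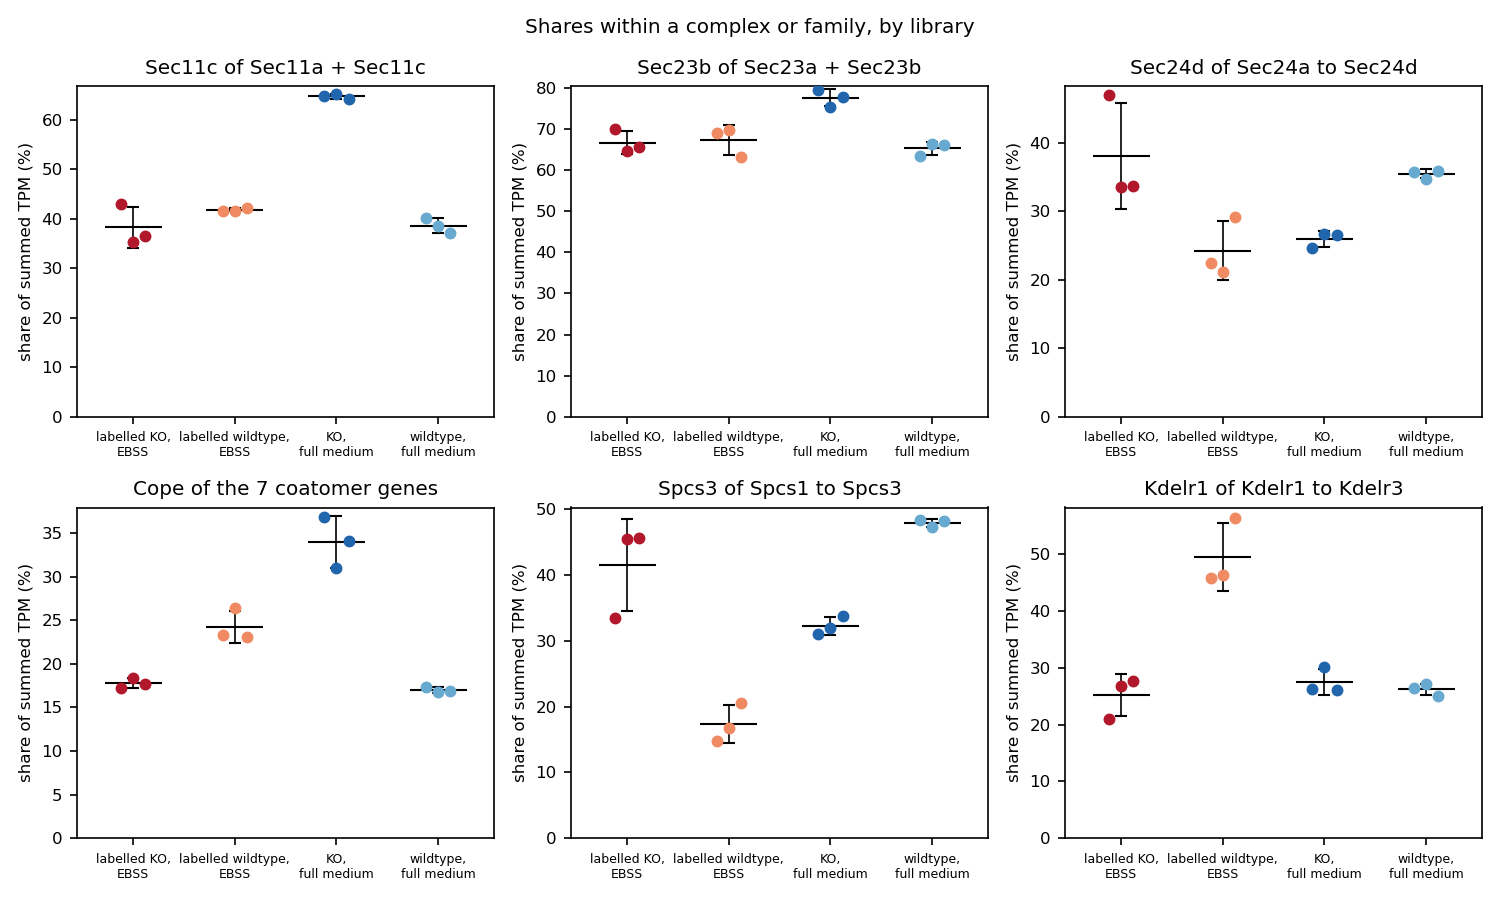
Share of summed TPM that 6 genes take within their complex or family, in each library (points) by group, with the group mean (line) and SD (bars, n = 3); each axis starts at 0. Sec11c, Sec23b and Cope are highest in KO, full medium, Spcs3 is lowest and Kdelr1 highest in labelled wildtype, EBSS, and Sec24d is low in both of these groups.

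Other genes of the pathway, in 7 lists of 78 symbols of which 74 were tested, moved in both directions in KO, full medium: 14 rose (18.9%) and 22 fell (29.7%). Both shares are below the background of 20.1% and 35.8% of all tested genes. The median of the 74 was −0.08, which is 0.09 above that of all genes. Among translocon partners and the SRP receptor (10 tested), 1 rose and 2 fell, with Tram2, a translocon partner that takes part in collagen synthesis, at −0.97 (SE 0.15, adjusted p = 0.00029) and the channel paralog Sec61a2 at −0.63. In the oligosaccharyltransferase (11 tested), 3 rose and 3 fell, with the catalytic subunit Stt3a at −0.75 (adjusted p = 0.01) and Ddost at 0.66. In the CREB3 family and its proteases (4 tested), 1 rose and 1 fell: Creb3 was at 0.43 (adjusted p = 0.021), and Mbtps2, the Golgi protease that releases these factors, at −1.12 (SE 0.20, adjusted p = 0.0007).

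Of 6 COPII accessory genes tested, 0 rose and 2 fell, Sec16b at −0.75 and Sec23ip at −0.49. Of 10 COPI accessory and Arf genes, 1 rose and 3 fell, with the gamma subunit paralog Copg2 at 0.90 and the GTPase Arf4 at −0.82. Of 20 SNAREs and tethers, 6 rose and 6 fell, with the tether subunits Trappc1 and Trappc3 at 1.25 and 0.75. Of 13 other cargo receptors, 2 rose and 5 fell, with Tmed1 at −1.10 and Lman2l at 1.05.

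In EBSS, labelled KO against labelled wildtype ran the other way. Of the 49 genes, 48 were higher in labelled KO (98%) and 0 were lower by limma, where 71.9% of all tested genes were higher and 8.58% lower (80.5% together). The same 48, and 0 lower, passed an unadjusted p of 0.05. The gene not called was Sec24a, at 0.37 (SE 0.18, adjusted p = 0.075). All 49 genes were higher in every library labelled KO than in every library labelled wildtype, as were 70% of all tested genes, with 8.18% lower without overlap. The median change of the 49 was 1.40, where all genes had a median of 0.91, so 0.49 relative to all genes. Median-of-ratios scaling changed the counts to 26 higher and 6 lower, where 34.6% and 29.2% of all genes were called. For many of the 49 the call thus depends on the scaling, and for some the direction does. The 6 that turned to lower were Sec24a at −0.51, Sec61b at −0.28, Sec61g at −0.33, Sar1a at −0.18, Kdelr1 at −0.28 and Stx5a at −0.62. Among the other pathway genes, 66 of 74 were higher (89.2%) and 2 lower (2.7%), and their median lay 0.34 above that of all genes.

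The largest differences in EBSS were those of Creb3l1, at 3.50 (SE 0.13, adjusted p = 6.4e-09), Spcs3 and Ssr1. Spcs3 was at 168, 230.4 and 240.1 TPM in labelled KO and at 25.7, 30.2 and 31.4 TPM in labelled wildtype, a difference of 2.82 (SE 0.13, adjusted p = 2e-08). Ssr1, the alpha subunit of TRAP, was at 124, 99.2 and 95.8 TPM in labelled KO and at 15.4, 17.1 and 14.8 TPM in labelled wildtype, a difference of 2.67 (SE 0.11, adjusted p = 9.8e-09). These 3 genes stayed higher in labelled KO with median-of-ratios scaling, at 2.62, 1.87 and 1.74. Creb3l2 was at 1.95 (SE 0.16, adjusted p = 8.7e-07), or 1.11 with that scaling. Above the median of all genes lay 4 of 4 TRAP genes, 4 of 4 SRP genes, 7 of 7 coatomer genes, 8 of 9 cargo receptors and 10 of 12 COPII genes, against 2 of 4 translocon genes and 1 of 2 SNAREs.

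EBSS against full medium within the wildtype label shares the libraries labelled wildtype, EBSS with the comparison just given. The 2 sets of values are therefore not independent, and neither is a repeat of the other. Nearly all of the 49 genes were lower in EBSS as deposited. Of the 49 genes, 0 were higher and 48 lower (98%) by limma, and also 0 and 48 at an unadjusted p under 0.05, where 9.25% of all tested genes were higher and 71.8% lower (81.1% together). The gene not called was Stx5a, at −0.24 (SE 0.13, adjusted p = 0.1). All 49 were lower in every library labelled wildtype, EBSS than in every wildtype library in full medium, as were 73.6% of all tested genes, with 10.5% higher without overlap. The median was −1.33, where that of all genes was −0.94, which leaves −0.39. With median-of-ratios scaling 6 were higher and 24 lower, where 30.7% and 35.4% of all genes were called; Sec24a, Sec61b, Sec61g, Sar1a, Kdelr1 and Stx5a were the 6, from 0.16 to 0.76. Spcs3, at 25.7, 30.2 and 31.4 TPM in labelled wildtype, EBSS and at 266, 246 and 271 TPM in wildtype, full medium, changed by −3.12 (SE 0.13, adjusted p = 9.3e-09). Creb3l1 changed by −3.15 (adjusted p = 9.5e-09) and Creb3l2 by −1.94 (adjusted p = 7.9e-07). Arcn1 was at 26.5, 27.8 and 31.7 TPM in labelled wildtype, EBSS and at 185, 179.7 and 188 TPM in wildtype, full medium, a change of −2.65 (SE 0.15, adjusted p = 5.3e-08). With median-of-ratios scaling Creb3l1, Spcs3 and Arcn1 stayed lower, at −2.23, −2.13 and −1.65. Of the other pathway genes, 2 of 74 were higher (2.7%) and 67 lower (90.5%).

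EBSS against full medium within the KO label shares no library with the comparison within the wildtype label. It does share the 3 KO libraries in full medium with the first comparison. It also shares the libraries labelled KO, EBSS with labelled KO against labelled wildtype in EBSS, so it is independent of neither. Here 31 of the 49 genes were higher in EBSS (63.3%) and 5 lower (10.2%), where 33.3% and 20.9% of all tested genes were called (54.2% together). The 5 lower were Sec11c, Cope, Srp14, Sec61g and Sec22b. The 49 had a median of 0.43 and all genes one of 0.13, so the 49 lay 0.29 above. Of the 49, 33 were higher without overlap (41.5% of all tested genes) and 6 lower (26.4%). With median-of-ratios scaling 26 were higher and 7 lower, where 26.2% and 25.8% of all genes were called, and no called direction turned. Without the 3 libraries labelled wildtype, EBSS, 34 were higher and 8 lower, where 40.2% and 26.6% of all tested genes were called. Without these and replicate 1 of labelled KO, EBSS, 33 were higher and 9 lower, where 42.7% and 31.8% of all tested genes were called. The count of lower genes was 8 without replicate 3 of labelled wildtype, EBSS alone, and 3 without replicate 3 of labelled KO, EBSS or replicate 3 of KO, full medium.

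Creb3l1 differed most within the KO label, with a mean of 70.0 TPM in labelled KO, EBSS and 1.53 TPM in KO, full medium, a change of 4.82 (SE 0.13, adjusted p = 2.4e-09). Sec24d was at 111, 56.3 and 56.7 TPM in labelled KO, EBSS and at 24.3, 31.5 and 29.9 TPM in KO, full medium, a change of 1.29 (SE 0.25, adjusted p = 0.0011). Replicate 1 was the highest library, and all 3 were above every KO library in full medium. Spcs3 was at 168, 230.4 and 240.1 TPM in labelled KO, EBSS and at 96.5, 109 and 106 TPM in KO, full medium, a change of 1.01 (SE 0.13, adjusted p = 5.8e-05). Lower in EBSS were Sec11c, at 98.3, 58.0 and 63.8 TPM in labelled KO, EBSS against 143, 149.8 and 134 TPM in KO, full medium (log2 change −0.98, SE 0.19, adjusted p = 0.0012), and Cope, at 243, 207 and 194 TPM in labelled KO, EBSS against 376, 317 and 359 TPM in KO, full medium (log2 change −0.71, SE 0.11, adjusted p = 0.00023). Srp14 was at 391, 357 and 351 TPM in labelled KO, EBSS and at 563, 582 and 477 TPM in KO, full medium, a change of −0.56 (SE 0.14, adjusted p = 0.007). Creb3l2 changed by 0.74 (SE 0.16, adjusted p = 0.0027). Of the other pathway genes, 26 of 74 were higher (35.1%) and 12 lower (16.2%), near the 33.3% and 20.9% of all tested genes. Their median lay 0.04 above that of all genes.

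**Figure D5:**
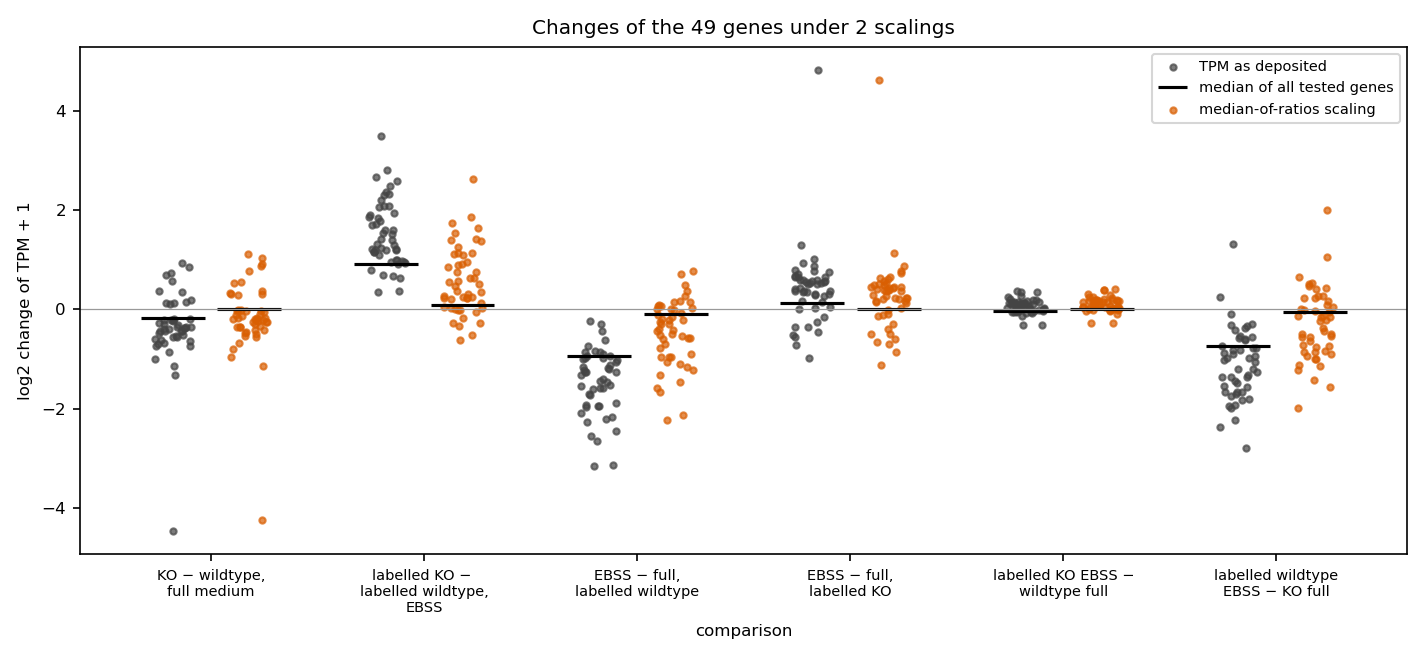
Log2 change of each of the 49 genes (points) in 6 comparisons, with TPM as deposited (grey) and with median-of-ratios scaling (orange); black lines are medians of all tested genes. The grey points of the comparisons that use the libraries labelled wildtype, EBSS lie nearly all on one side of 0 and straddle 0 after scaling, while the points of labelled KO, EBSS against wildtype, full medium lie within 0.38 of 0 as deposited.

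Because of the doubt about the EBSS labels, the 2 comparisons across both factors were included. Labelled KO, EBSS against wildtype, full medium gave the smallest differences of all: 0 of the 49 genes were called in either direction by limma, and 3 (Sec61g and Creb3l1 upward, Spcs3 downward) passed an unadjusted p of 0.05, where 0.0869% of all tested genes (11) were called higher and 0.0474% (6) lower (0.134% together). The median change of the 49 was 0.05, and the largest were Spcs2 at 0.38 (adjusted p = 0.54), Creb3l1 at 0.35 (adjusted p = 0.35) and Sec61g at 0.34 (adjusted p = 0.27) upward, and Sar1b and Spcs3 at −0.31 (adjusted p = 0.62 and 0.41) downward. Creb3l2 and Rbbp5 were both at 0.01 (adjusted p = 0.99 and 0.99). Median-of-ratios scaling also called 0. A fit on these 6 libraries alone called 1 gene, Creb3l1, at 0.35 (adjusted p = 0.042). Without replicate 1 of labelled KO, EBSS and the 3 libraries labelled wildtype, EBSS, 3 were called lower, Sar1b at −0.40, Mcfd2 at −0.33 and Sec11c at −0.27 (limma adjusted p = 0.02, 0.024 and 0.04), where 3.16% of all genes were called higher and 5.63% lower. Of the 49, 6 were higher without overlap (13.6% of all tested genes) and 2 lower (24.7%). A call that is missing here does not show that the groups are alike.

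Labelled wildtype, EBSS against KO, full medium gave 1 of the 49 higher (2.04%) and 43 lower (87.8%), where 11.6% and 63.5% of all tested genes were called (75.1% together). The gene higher was Creb3l1, at 1.32 (SE 0.13, adjusted p = 3.1e-06). The largest falls were in Sec23b, at 19.7, 22.5 and 13.8 TPM in labelled wildtype, EBSS and at 121, 135 and 139.5 TPM in KO, full medium (log2 change −2.78, SE 0.19, adjusted p = 1.8e-07), in Ssr1, at 15.4, 17.1 and 14.8 TPM in labelled wildtype, EBSS and at 77.1, 93.5 and 84.6 TPM in KO, full medium (log2 change −2.36, SE 0.11, adjusted p = 1.8e-08), and in the lectin receptor Lman1, at 36.7, 39.7 and 23.1 TPM in labelled wildtype, EBSS and at 134, 165 and 168 TPM in KO, full medium (log2 change −2.23, SE 0.17, adjusted p = 4.6e-07). Creb3l2 was also lower, at −1.20 (SE 0.16, adjusted p = 4.3e-05). The targeted gene Rbbp5 was higher, at 0.55 (SE 0.13, adjusted p = 0.0026). The median of the 49 was −1.05, against −0.73 for all genes, and 45 genes were lower without overlap (63.4% of all tested genes) and 2 higher (12.4%). With median-of-ratios scaling 10 were higher and 25 lower, where 30% and 33.2% of all genes were called. A fit on these 6 libraries called 2 genes higher, Creb3l1 and Stx5a, as did the fit without replicate 1 of labelled KO, EBSS.

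The difference between the labelled EBSS effects (KO minus wildtype) was tested as an interaction over all 12 libraries. It was positive for 45 of the 49 genes (91.8%) and negative for 0 by limma, with 46 and 0 at an unadjusted p under 0.05, where 64.2% of all tested genes were positive and 12.5% negative (76.7% together). The median was 1.76, against 1.06 for all genes, and 0.70 relative to them. The 4 genes not called were Sec61g, Sec11c, Srp14 and Cope, at −0.06, 0.01, 0.47 and 0.15 (adjusted p = 0.73, 0.99, 0.055 and 0.38). With median-of-ratios scaling 30 were positive and 5 negative, where 34% and 32.8% of all genes were called, and the 5 were those 4 genes and Sec22b, from −0.50 to −1.21. The 3 largest values were those of Creb3l1 at 7.97, Spcs3 at 4.14 and Arcn1 at 3.57, and Arcn1, whose other groups are given above, was at 225, 155 and 156 TPM in labelled KO, EBSS. By role, the median relative to all genes was 4.26 in the 2 regulators, 1.19 in cargo receptors, 0.92 in TRAP, 0.74 in COPII, 0.72 in COPI, 0.70 in signal peptidase, 0.57 in SRP, −0.20 in the translocon and −0.33 in the 2 SNAREs. Since Rbbp5 went against the EBSS labels, both the size and the sign of these values rest on those labels.

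Replicate 1 of labelled KO, EBSS differed from replicates 2 and 3 in these genes. It was above both of them at 45 of the 49 genes (91.8%), against 54.9% of all tested genes, and the median log2 difference from their mean was 0.30, against 0.08 for all genes. The largest was that of Sec24d, at 0.96, followed by Spcs2 at 0.90 and Sec61a1 at 0.75, and Spcs3 was lower by the most, at −0.48. Over all genes the largest was that of Herpud1, an ER stress response gene, which was at 956 TPM in replicate 1 and at 87.1 and 59.1 TPM in replicates 2 and 3. Without this library the median of the 49 relative to all genes was 0.38 for labelled KO against labelled wildtype in EBSS (0.49 with it) and 0.24 for EBSS against full medium within the KO label (0.29 with it). Its part in single results beyond these values was not tested.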

How the data were processed

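Poly(A)-selected RNA of 12 fibroblast libraries was prepared with column extraction, DNase and a TruSeq kit, per the labels' protocols. The authors deposited 1 table of TPM values per gene symbol and library, made with Salmon against mm10, per the submitters' processing notes. Its version, the annotation and the treatment of near-identical copies were not given in the sources used here. TPM keeps no read number, so depth is unknown and no counting interval is given.

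The 12653 of 25117 symbols with at least 1 TPM in at least 3 libraries were tested as log2(TPM + 1), so changes of low genes are understated. A limma fit (3.58.1, in R 4.3.3) had 4 group means over all 12 libraries and a variance trend, with Benjamini-Hochberg adjustment over all tested genes and a threshold of 0.05; the code was tested on simulated data. Symbols at 0 in all libraries numbered 4859. Shares used exact permutation tests (scipy 1.17.1, two-sided), and figures matplotlib 3.10.9 in Python 3.11.15. Positions are those of GENCODE on GRCm38. The sample titles number the replicates as "brep" without spelling it out, and no label names separate cultures, so p-values measure the spread between these libraries, which may be technical. Other settings were pseudocounts of 0.1 and 0.5, no filter, a mean of at least 5 TPM, median-of-ratios and quantile scaling, leaving out 83 ribosomal protein genes, the replicate number as a block, no variance trend, fits on 6 libraries or without labelled wildtype, EBSS, and each library left out. Values in every library are given for the regulators, the largest called rise and fall of each role group in full medium, and the 3 largest of each other comparison. The members and lists were chosen with earlier results of these data known.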

Additional observations from a re-analysis of the deposited data

Results flagged for a closer look

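The difference between the labelled EBSS effects (KO minus wildtype) was past the threshold of the limma interaction test for each of 5 genes that are named in the report for this contrast or throughout. It was 7.97 on the log2 scale for Creb3l1, 4.14 for Spcs3, 3.57 for Arcn1, 2.68 for Creb3l2 and 2.52 for the targeted gene Rbbp5. Creb3l1, Spcs3 and Arcn1 hold the largest called values of this contrast and were listed for that. That they pass the test follows from the choice and is no further result. Of all tested genes 76.7% were called in this contrast, and both the size and the sign of all 5 values rest on EBSS labels that Rbbp5 goes against. With median-of-ratios scaling these values were 6.86 for Creb3l1, 3.00 for Spcs3, 2.44 for Arcn1, 1.66 for Creb3l2 and 1.42 for Rbbp5.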

How the results depend on the processing

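Of the gene values named in the report, recomputed under every alternative, 1086 kept direction and call, 13 lost the call, 1 gained it and 5 changed direction; of the counts and medians over the 49 genes, 432 stayed close and 45 moved. The cause of these moves was not tested. Rises and falls are given as in the report.

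With median-of-ratios scaling, members called in EBSS, labelled KO against labelled wildtype, numbered 26 higher and 6 lower; within the wildtype label, EBSS against full medium, 6 higher and 24 lower; labelled wildtype, EBSS against KO, full medium, 10 higher and 25 lower; and in the interaction, 5 lower. Quantile scaling gave 1 lower, 2 higher, 5 higher with 28 lower, and 4 lower in these comparisons. Without ribosomal protein genes the interaction had 1 lower and labelled wildtype, EBSS against KO, full medium 2 higher, as had the fit on its 6 libraries. The fit on 6 libraries called 1 higher in labelled KO, EBSS against wildtype, full medium. Without the libraries labelled wildtype, EBSS, EBSS against full medium within the KO label had 8 lower. Without these and replicate 1 of labelled KO, EBSS, a choice made after seeing the data, it had 9 lower, the full-medium comparison 10 higher, and labelled KO, EBSS against wildtype, full medium 3 lower.

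The median of the 49 relative to all genes, with a pseudocount of 0.1, no filter, median-of-ratios and quantile scaling in turn, was 0.367, 1.08, 0.381 and 0.699 for labelled KO against labelled wildtype in EBSS, −0.296, −1.03, −0.300 and −0.581 within the wildtype label, and 0.551, 1.49, 0.575 and 1.15 for the interaction. With the first 3 of these it was −0.179, −0.855 and −0.188 for labelled wildtype, EBSS against KO, full medium. With no filter and with quantile scaling it was −0.364 and −0.400 in the full-medium comparison, and 0.414 and 0.436 within the KO label. Rbbp5 within the wildtype label was at 0.0517 with quantile scaling. In labelled KO, EBSS against wildtype, full medium, Creb3l2 was at −0.176 and Rbbp5 at −0.126 without labelled wildtype, EBSS and replicate 1 of labelled KO, EBSS.

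Leaving out each library in turn gave 5 to 7 higher in the full-medium comparison, 3 to 8 lower within the KO label, 0 to 0 lower in labelled KO, EBSS against wildtype, full medium, and 1 to 2 higher in labelled wildtype, EBSS against KO, full medium. The relative median ranged over 0.382 to 0.535 for labelled KO against labelled wildtype in EBSS and 0.242 to 0.395 within the KO label. In labelled KO, EBSS against wildtype, full medium, Creb3l2 ranged over −0.176 to 0.117 and Rbbp5 over −0.126 to 0.102, both negative without replicate 1 of labelled KO, EBSS.

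Same-numbered replicates did not deviate together over all tested genes (r of −0.0728 to 0.0793 over 18 pairs, 0 over 0.1). A pairing that touches few genes would not show in this r. With the replicate block the counts higher and lower were 6 and 25, 48 and 0, 0 and 47, 31 and 5, 46 and 0, 0 and 0, and 1 and 43, in the order full medium, EBSS, within the wildtype label, within the KO label, interaction, and the 2 comparisons across both factors. Read depth is unknown, and 3 libraries a group limit every value.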

Other observations

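The longest annotated transcript of each gene and its log2 change were compared over the 49 genes, with a Spearman rho of −0.21 for KO against wildtype in full medium, 0.25 for labelled KO against labelled wildtype in EBSS, −0.24 within the wildtype label and 0.20 within the KO label. It was 0.32 for the interaction, −0.04 for labelled KO, EBSS against wildtype, full medium and −0.09 for labelled wildtype, EBSS against KO, full medium. These are descriptions across genes of the same libraries.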
